A study of Mus musculus with 6 samples.

Results

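The enhancer predictions of cultured mouse oligodendrocyte precursor cells (OPCs) were read here at 10 microRNA genes, Mir219a-1, Mir219a-2, Mir338, Mir9-1, Mir9-2, Mir9-3, Mirlet7c-1, Mir99a, Mir146 and Mir155, which were chosen by name for known roles in glia or in immune cells and with earlier listings of the same tables in view. Their pairs were all rows whose target gene identifier belonged to one of them, and 9 of the 10 were a target gene in at least 1 table, among 32049 target genes in all and 1287 listed microRNA genes. Because whether a gene was listed, and its activity-by-contact scores, came from the tables the choice was made on, those values are descriptions without a test. MicroRNA genes are transcribed as long precursors, often inside a host gene, and a hairpin cut from the precursor yields the mature strand, whose seed (bases 2 to 8) pairs with messenger RNAs. In the oligodendrocyte lineage miR-219 and miR-338 are known for promoting the exit from the precursor state, miR-9 is a microRNA of neural progenitors and neurons, the let-7c and miR-99a pair is made from a long non-coding transcript, and miR-146a and miR-155 are known as a brake and a driver of inflammatory signalling in immune cells.

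The 6 libraries were H3K27ac HiChIP (capture of chromatin contacts at a histone mark of active enhancers and promoters), 3 of control OPCs (Ctr-OPCs) and 3 of OPCs given 100 ng/mL of the cytokine interferon gamma (IFN-γ-OPCs). All came from Sox10-Cre/RCE mice, labelled as strain C57BL/6j although the methods give the RCE reporter parents a mixed C57BL/6xCD1 background, in which Sox10, a gene of the whole oligodendrocyte lineage, drives a GFP reporter; the cells were sorted on that reporter or on CD140a from the pooled brains of several young pups of both sexes and grown in culture. The labels put the agent 24 h after passaging, and the study's methods give 48 h of exposure. The authors joined the contacts with bulk ATAC-seq (open chromatin) and H3K27ac CUT&RUN into 1 table of element and gene pairs per condition. Hence no value below has a replicate error or a p-value, n is 1 table per condition, the depth behind a value is unknown, and a difference between the tables cannot be told apart from the spread between libraries. As a check of the cell type, all 5 OPC markers examined (Pdgfra, Cspg4, Olig1, Olig2, Sox10) were target genes in both tables with 11 connections in each (9 and 8 distinct elements), whereas of 6 microglia markers 3 were listed in Ctr-OPCs with 2 connections and 5 in IFN-γ-OPCs with 0; 4 of 5 astrocyte markers (4 and 5 connections) and 4 of 4 neuron markers (0 and 1) were listed in both. Sox10 had 0 connections in both tables, against 4 in each for Olig1, and the astrocyte gene Slc1a3 had 2 and 4. Listing alone did not tell the cell types apart, since all 4 neuron markers were listed. A listing is not expression, and the part that other cells may have in the values below was not tested.

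The mature strands below, from RefSeq (GRCm38.p6), show which of the loci make the same product; capitals mark the seed.
miR-219a-5p: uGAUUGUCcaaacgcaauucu
miR-338-3p: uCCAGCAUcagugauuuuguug
miR-9-5p: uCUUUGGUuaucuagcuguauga
miR-9-3p: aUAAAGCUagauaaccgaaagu
let-7c-5p: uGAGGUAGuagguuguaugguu
miR-99a-5p: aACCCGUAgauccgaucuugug
miR-146a-5p: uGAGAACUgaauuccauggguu
miR-155-5p: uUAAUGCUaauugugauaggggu
The RefSeq table held all 10 hairpins, with 19 mature strands under 14 names and 14 seeds. Mir9-1, Mir9-2 and Mir9-3, on chromosomes 3, 13 and 7, make the same miR-9-5p and miR-9-3p, and Mir219a-1 and Mir219a-2, on chromosomes 17 and 2, the same miR-219a-5p. The let-7c-5p seed is carried by 11 mature names in the mouse table, the miR-99a-5p seed by 3 (miR-99a-5p, miR-99b-5p and miR-100-5p) and the miR-146a-5p seed by 2, with miR-146b-5p. The seeds of miR-219a-5p, miR-338-3p, miR-9-5p, miR-9-3p and miR-155-5p were each found under 1 name. For miR-9 and miR-219a-5p the predictions thus concern single loci of a product that several loci make. Whether loci outside the 10 genes make any of these mature strands was not examined.

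In the tables an element is an open chromatin region, its activity joins the ATAC-seq and H3K27ac signal, and the activity-by-contact (ABC) score is the share of 1 element in the sum of activity times contact over all elements around a gene. A pair above 0.05, the cut-off of the study's methods, is called a connection here, and the tables listed pairs from a score of 0.02 upward. The 9 genes had 48 pairs and 11 connections in Ctr-OPCs versus 57 pairs and 18 connections in IFN-γ-OPCs. Of the 18, 4 belonged to Mirlet7c-1 and lay on the same elements as 4 of Mir99a, so that the number of distinct connected elements was 11 in Ctr-OPCs compared with 14 in IFN-γ-OPCs. Mir219a-1 went from 0 connections to 1, Mir9-1 from 2 to 4, Mir99a from 3 to 4 and Mirlet7c-1 from no listing to 4, whereas Mir9-2 went from 5 to 4. Counted over all listed pairs the direction was opposite for Mir9-1 (8 to 6), Mir9-2 (11 to 13) and Mir99a (9 to 7). Mir9-3 kept 1, Mir219a-2, Mir338 and Mir146 had 0 in both, and Mir155 was not a target gene in either table. Thus 4 of 9 genes had more connections and 1 of 9 fewer, against 14.9% and 13.0% of all 32049 target genes. That background is unlike these genes, which had 6 and 6.33 listed pairs per gene against 2.58 and 2.69 over all. A connection was held by 4 of 8 and 6 of 9 of them, against 34.3% and 35.6% of all listed genes. With genes of the same connected elements counted once, 171 of 488 microRNA loci with a connection had more and 182 fewer. Here it was 4 and 1 of 6, with Mir99a and Mirlet7c-1 still separate. The pairs closest to the cut-off were at 0.0549 for Mir9-1 above it and at 0.0497 and 0.0492 for Mir338 and 0.0493 for Mir146 below it.

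**Figure D1:**
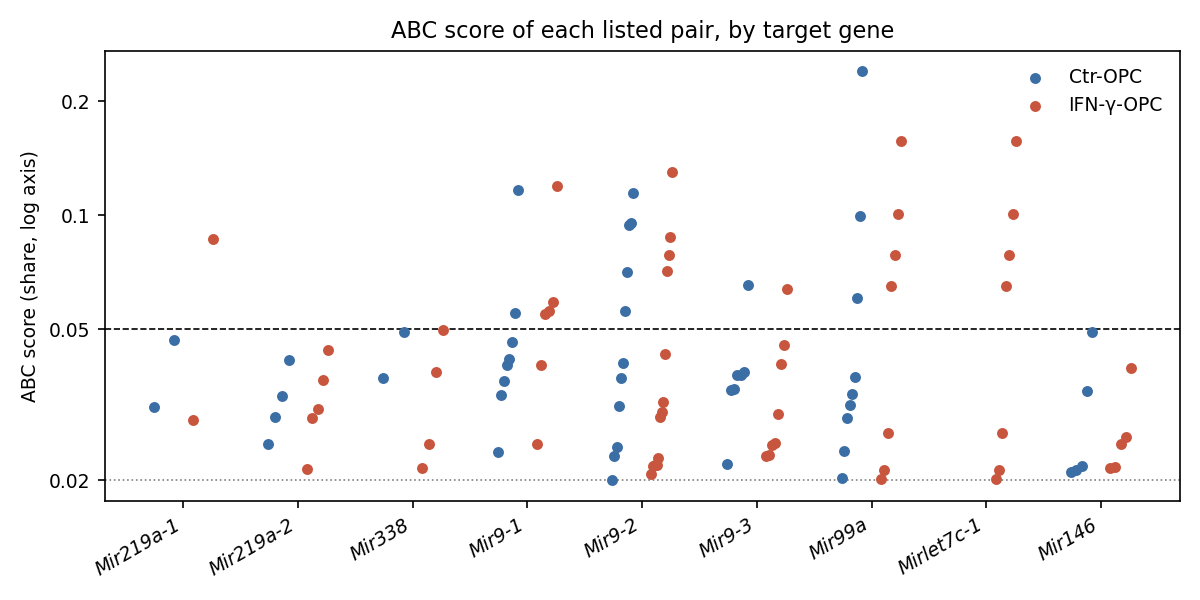
ABC score (log axis) of every pair listed for each microRNA gene, with Ctr-OPCs in blue and IFN-γ-OPCs in red, 1 point per pair. The dashed line is the 0.05 cut-off and the dotted line the 0.02 floor of the tables. Mir99a held the top score, 0.240 in Ctr-OPCs, and Mir338 stopped at 0.0492 and 0.0497. Each score is a share of its own gene's sum.

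Of 71 pairs in all, 34 were in both tables, 14 in Ctr-OPCs alone and 23 in IFN-γ-OPCs alone. For 9 of the 14 and 18 of the 23 the other table still held an overlapping element, paired with other genes. Among the 34 pairs in both, the median log2 ratio of IFN-γ-OPCs over Ctr-OPCs was -0.060 for activity, 0.025 for contact and 0.053 for the ABC score, beside -0.092, 0.053 and 0.017 over all 29858 matched pairs. At a size of 1.5-fold, activity was higher in 1 and lower in 1 of the 34 pairs (7.48% and 11.0% of all matched pairs), contact was higher in 1 and lower in 1 (12% and 8.33%), and the ABC score was higher in 4 and lower in 3 (14.8% and 13.6%). The sum of activity times contact around a gene moved by under 1.5-fold for all 8 genes in both tables, with log2 ratios from -0.17 for Mir219a-2 to 0.22 for Mir146, whereas 0.615% of all genes in both tables rose and 0.118% fell by that size. None of these shares of the microRNA genes' pairs was above that of the tables at large.

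**Figure D2:**
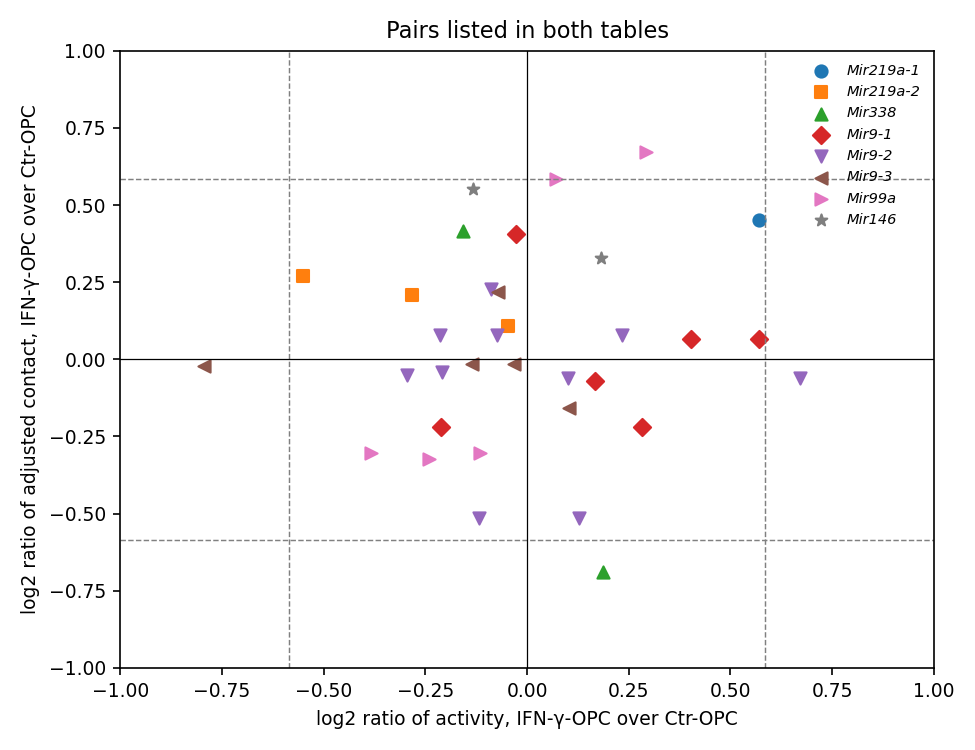
Each point is a pair listed in both tables, with the log2 ratio of activity on the x axis and of contact on the y axis, IFN-γ-OPCs over Ctr-OPCs; dashed lines mark 1.5-fold. The Mir219a-1 pair sits at the upper right, with activity at 1.49-fold and contact at 1.37-fold, both inside the lines.

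Mir219a-1 and Mir219a-2, the loci of miR-219a-5p, differed in the predictions. The Mir219a-1 hairpin lies at chr17:34024983-34025092 on the minus strand (mm10), in the major histocompatibility region, with the start of the long non-coding RNA Gm26940 at 22 bp and that of H2-Ke6, a steroid dehydrogenase gene, at 2968 bp. Its main element, chr17:34025668-34026167 in Ctr-OPCs, is 0.825 kb upstream and reaches into an untranslated exon of H2-Ke6. There the activity was 1.69 in Ctr-OPCs against 2.52 in IFN-γ-OPCs, the contact 0.0593 and 0.0810, and the ABC score 0.0470 and 0.0865, a 1.84-fold difference that took the pair over the cut-off. With power-law contact in place of the measured one, the number of connections of Mir219a-1 changed by 0. The same element had 0 target genes above 0.05 in Ctr-OPCs but 8 in IFN-γ-OPCs, among them Gm26940 and Mir219c (both 0.0865), H2-Ke6 (0.0865) and Rxrb, a retinoid receptor partner (0.0847). The score thus did not belong to the hairpin alone, and H2-K1, a class I antigen-presentation gene, was listed with the same elements in IFN-γ-OPCs. A further element upstream, in an untranslated exon of Rxrb and overlapping the RefSeq promoter of Col11a2 (a collagen gene), was listed for Mir219a-1 only in Ctr-OPCs (score 0.0312), and one 12.9 kb downstream only in IFN-γ-OPCs (0.0288). The 300 bases of the main element next to the H2-Ke6 exon, chr17:34025733-34026032 (GRCm38, plus strand), show the sequence behind the new connection.
Mir219a-1 element: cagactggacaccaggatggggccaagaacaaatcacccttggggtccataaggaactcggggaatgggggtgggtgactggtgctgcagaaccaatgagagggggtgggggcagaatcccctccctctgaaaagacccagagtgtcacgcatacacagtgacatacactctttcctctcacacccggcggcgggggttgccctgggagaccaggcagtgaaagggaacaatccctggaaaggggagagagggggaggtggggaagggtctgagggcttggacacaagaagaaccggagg

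Mir219a-2 lies at chr2:29845631-29845727 on the minus strand, outside any host gene, with the start of Mir219b 80 bp away and that of Cercam at 23437 bp. Its pairs, 4 in Ctr-OPCs versus 5 in IFN-γ-OPCs, all stayed below the cut-off, with top scores of 0.0415 and 0.0442 at an element 10.1 kb downstream in an intron of Urm1, a ubiquitin-like modifier gene. The 3 pairs in both tables were all in Urm1, and the element 14.4 kb downstream went from an activity of 3.27 to 2.23 while its contact went from 0.0239 to 0.0288, leaving the score at 0.0334 and 0.0309. Upstream, the intergenic element at 11.4 kb (activity 1.90) was listed in Ctr-OPCs and others at 4.40 and 7.78 kb (0.619 and 1.06) in IFN-γ-OPCs. Mir219b used the same elements in both tables, 4 of 4 and 5 of 5.

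Mir338 lies at chr11:120014765-120014862, inside and on the strand of Aatk, a kinase gene of the nervous system. It had no connection in either table, and its top scores lay just below the cut-off. The element 1.49 kb downstream, in an Aatk coding exon, had activities of 2.01 and 1.80, contacts of 0.0458 and 0.0612 and scores of 0.0373 and 0.0497 in Ctr-OPCs and IFN-γ-OPCs. The element 2.35 kb upstream had activities of 2.65 and 3.01, contacts of 0.0458 and 0.0284 (0.620 of the Ctr-OPC value) and scores of 0.0492 and 0.0387. The order of the 2 elements was therefore opposite in the 2 tables, with activity moving against contact at both. Elements 2.93 and 9.01 kb downstream, the latter in an intron of Baiap2, were listed in IFN-γ-OPCs alone (0.0215 and 0.0250). Aatk itself, whose start in the tables is 32305 bp away, had 3 listed pairs in each table and shared 0 elements with Mir338, while the overlapping antisense Mir3065, 95 bp away, shared all 2 and all 4. The upstream element, chr11:120016962-120017461, overlaps an internal RefSeq start of Aatk.

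**Figure D3:**
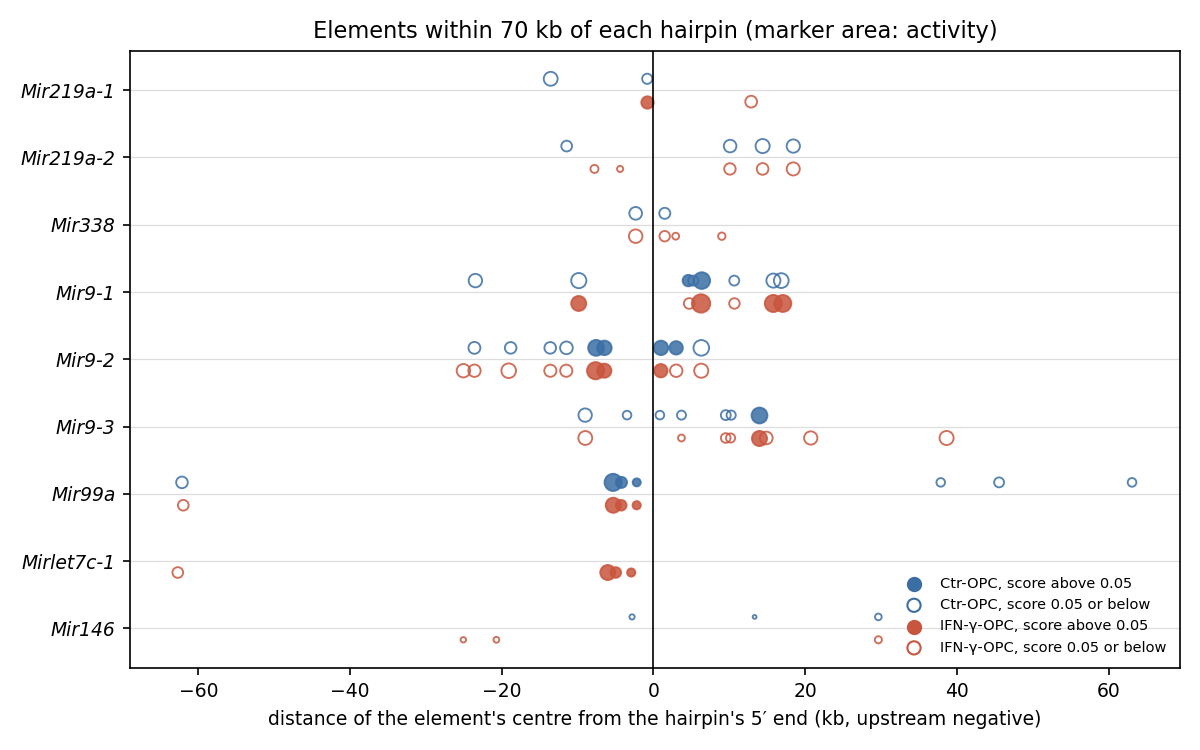
Position of the listed elements within 70 kb of each hairpin's 5′ end (x axis, kb, upstream negative), with marker area proportional to activity, filled markers above a score of 0.05, Ctr-OPCs in blue and IFN-γ-OPCs in red. Connected elements lay on both sides of Mir9-1 and on the upstream side for Mir99a and Mirlet7c-1; pairs beyond 70 kb are not drawn.

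Mir9-1, Mir9-2 and Mir9-3 held 8 of the 11 connections in Ctr-OPCs compared with 9 of the 18 in IFN-γ-OPCs. Mir9-1 lies at chr3:88215598-88215686 in the long non-coding RNA Gm3764. Its element with the top ABC score, chr3:88221712-88222211 in Ctr-OPCs, 6.36 kb downstream over an exon of Gm3764, had activities of 4.57 and 5.55, contacts of 0.0713 and 0.0613 and scores of 0.116 and 0.120, so that a higher activity went with a lower contact. Intergenic elements 15.8 and 16.8 kb downstream had activities of 3.25 and 3.59 in Ctr-OPCs against 4.83 and 4.75 in IFN-γ-OPCs at nearly equal contact (0.0314 and 0.0329), and their scores went from 0.0366 to 0.0559 and from 0.0404 to 0.0549. The element 9.85 kb upstream crossed the cut-off in the same direction (0.0462 and 0.0591) with activity nearly equal (3.78 and 3.71) and contact at 0.0342 and 0.0454. In the opposite direction the element 4.59 kb downstream went from 0.0553 to 0.0404. Gm3764 had 6 and 5 listed pairs and shared 6 of the 8 and 4 of the 6 elements of Mir9-1, with 2 and 1 connections of its own. Mir3093 and Gm25641, other microRNA genes at 427 and 98 bp, had the same elements and the same top score to within rounding. The centre of the top-scoring element, chr3:88221812-88222111 (GRCm38, plus strand), is given for the locus.
Mir9-1 element: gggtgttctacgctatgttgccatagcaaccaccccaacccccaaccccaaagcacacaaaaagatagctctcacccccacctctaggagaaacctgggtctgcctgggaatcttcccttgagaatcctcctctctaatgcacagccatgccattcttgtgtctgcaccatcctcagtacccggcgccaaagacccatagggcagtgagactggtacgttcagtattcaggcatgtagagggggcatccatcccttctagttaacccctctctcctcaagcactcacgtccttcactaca

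Mir9-2, at chr13:83738814-83738885 in the long non-coding RNA C130071C03Rik, had the most pairs, 11 in Ctr-OPCs versus 13 in IFN-γ-OPCs. The leading element, 7.56 kb upstream in an intron of the host, had activities of 4.16 and 4.90 and scores of 0.115 and 0.130. The next element, chr13:83732093-83732592, had activities of 3.47 and 3.30 and scores of 0.0957 and 0.0878, and the one 0.983 kb downstream of the hairpin had activities of 3.42 and 2.95 and scores of 0.0944 and 0.0785. These 3 had the same contact in a table, 0.0382 in Ctr-OPCs compared with 0.0403 in IFN-γ-OPCs, so that their order followed activity. The loss of a connection came from the element 2.99 kb downstream, whose score went from 0.0560 to 0.0430 with activities of 2.95 and 2.55 at contacts of 0.0263 and 0.0255. Farther upstream, the element 18.8 kb away showed the one activity difference above 1.5-fold in this direction among the 34 pairs (2.21 and 3.52), and the element 11.5 kb away went to 0.589 of its score (0.0373 and 0.0220) with contact at 0.0195 and 0.0137. The element at 83732093 covers a RefSeq start of the host, and the 250 bases before it, chr13:83732243-83732492 (GRCm38.p6, plus strand), are shown because this host start lies in a connected element.
C130071C03Rik promoter: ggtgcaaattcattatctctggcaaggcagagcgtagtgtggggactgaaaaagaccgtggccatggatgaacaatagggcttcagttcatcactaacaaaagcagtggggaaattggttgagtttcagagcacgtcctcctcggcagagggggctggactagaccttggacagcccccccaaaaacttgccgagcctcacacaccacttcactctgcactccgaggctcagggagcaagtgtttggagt
The host shared 10 of 11 elements with Mir9-2 in Ctr-OPCs against 10 of 13 in IFN-γ-OPCs, had 3 and 4 connections, and stood at promoter activity quantiles of 0.975 and 0.980, beside 0.853 and 0.860 for the hairpin.

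Mir9-2 also had a connection at a distance of 609 kb, while the next farthest connection of the 9 genes was at 99.4 kb. The intergenic element chr13:84347971-84348470 had activities of 6.25 in Ctr-OPCs versus 5.88 in IFN-γ-OPCs, the highest among all elements of the 9 genes in each table, contacts of 0.0157 and 0.0184, and scores of 0.0707 and 0.0713. These contacts were 8.29 and 9.71 times the power-law value of the tables for that distance and stood at percentiles 97.2 and 97.9 among the 1529 and 1653 listed pairs of 500 to 700 kb, whose median was 2.24 and 2.66 times the power law. Only pairs above the score floor are listed, so far pairs with low contact are missing from that reference. The contacts come from H3K27ac HiChIP, and H3K27ac also enters the activity. The part of the captured mark in the high contact of this element was not tested. The element had 25 and 27 listed target genes, led by Gm26927, a pseudogene 8.11 kb away, with scores of 0.160 and 0.127. Gm26927 was in turn a target of the elements close to Mir9-2, at 0.0612 for the leading one in Ctr-OPCs over 609 kb and at 0.0532 for the one just downstream of the hairpin in IFN-γ-OPCs over 600 kb, so that connections were listed from both ends. In IFN-γ-OPCs an element 1020 kb away, at 84758445, was listed as well, at a score of 0.0218, an activity of 1.92 and 14.2 times the power-law contact (percentile 98.6 among 841 pairs of 900 to 1100 kb); in the Ctr-OPC table the overlapping element had an activity of 1.92 and was not paired with Mir9-2. The centre of the 609 kb element, chr13:84348071-84348370 (GRCm38, plus strand), had a GC content of 57.7%.
Mir9-2 far element: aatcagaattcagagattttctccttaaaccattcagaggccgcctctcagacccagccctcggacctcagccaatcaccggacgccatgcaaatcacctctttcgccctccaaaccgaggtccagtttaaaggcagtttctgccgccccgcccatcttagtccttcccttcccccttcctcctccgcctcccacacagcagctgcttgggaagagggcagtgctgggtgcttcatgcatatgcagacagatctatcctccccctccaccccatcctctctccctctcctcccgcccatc

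**Figure D4:**
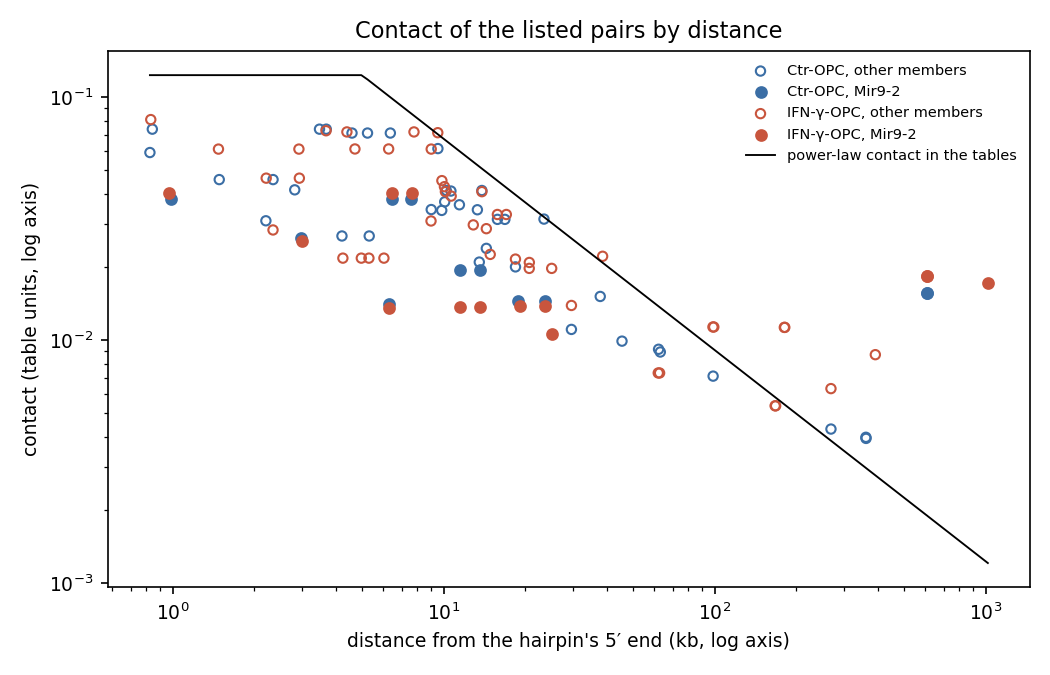
Contact of every listed pair against distance, both on log axes, with Mir9-2 filled and the other genes open, Ctr-OPCs in blue and IFN-γ-OPCs in red; the line is the power-law contact in the tables. Most pairs within 30 kb lie under the line, while the Mir9-2 pairs at 609 kb lie at 8.29 and 9.71 times it.

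Mir9-3, at chr7:79505264-79505353 in the non-coding host Mir9-3hg, kept 1 connection. That element, 13.8 kb downstream in an intron of the host, had activities of 4.14 and 3.77, contacts of 0.0413 and 0.0409 and scores of 0.0654 and 0.0640. An element 3.69 kb downstream showed the one activity difference past 1.5-fold downward, 1.34 and 0.773, with the score at 0.0379 and 0.0234. Elements at 3.48 and 0.842 kb (both 1.23) were listed in Ctr-OPCs alone and 3 elements at 14.9, 20.7 and 38.6 kb downstream (2.65 to 3.25) in IFN-γ-OPCs alone, where all 3 had an overlapping element of lower activity in the Ctr-OPC table (1.71 to 2.35). Mir9-3hg shared 6 of 7 and 7 of 8 elements with the hairpin and had 0 and 1 connections. A330074H02Rik and 2900037B21Rik, unclassified transcripts within 7660 bp, had the same connected element, with scores of 0.0920 in Ctr-OPCs compared with 0.0692 in IFN-γ-OPCs, while the score of Gm37608, at the same element, went the other way (0.0898 and 0.114).

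Mir99a (chr16:77598936-77599000) and Mirlet7c-1 (chr16:77599657-77599750) have starts 721 bp apart in the long non-coding host Mir99ahg. In the Ctr-OPC table only Mir99a was a target gene, at a promoter activity quantile of 0.411, just above the lowest value listed (0.4). In IFN-γ-OPCs Mir99a was at 0.573 and Mirlet7c-1 at 0.529, and their 7 elements and scores were the same to within rounding. Whether Mirlet7c-1 fell below that limit in Ctr-OPCs was not tested, and its 4 connections are no gain of elements, since overlapping elements were present in the Ctr-OPC table for all 7. The score is a share of the sum of activity times contact around a gene. In Ctr-OPCs that sum was 0.545 for Mir99a, between 0.380 for Mir146 and 2.80 for Mir9-1. A top score thus need not mean the largest activity times contact. The element with the top ABC score of all 9 genes, chr16:77592995-77594243, 5.32 kb upstream of Mir99a over an exon of the host, had activities of 4.88 and 3.74, contacts of 0.0269 and 0.0218 and scores of 0.240 and 0.157, lower in IFN-γ-OPCs by both factors (0.656 of the score). The element next to it, at 4.22 kb, followed with scores of 0.0996 and 0.0786, and the nearest, at 2.21 kb, went the other way (0.0607 and 0.101, 1.66-fold) at activities of 1.07 and 1.12 and contacts of 0.0310 and 0.0465. An element 98.8 kb upstream, also over a host exon, crossed the cut-off, with activities of 2.42 and 2.96, contacts of 0.00711 and 0.0113 and scores of 0.0315 and 0.0649 (2.06-fold); it was the 1 pair of the 34 with contact above 1.5-fold.

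The start of Mir99ahg, the host, lies 362619 bp upstream of Mir99a. Its top element is 0.807 kb from that start (scores 0.332 and 0.234) and was listed for Mir99a in Ctr-OPCs only, at 362 kb and a score of 0.0240. Mir99ahg shared 5 of the 9 elements of Mir99a in Ctr-OPCs against 3 of 7 in IFN-γ-OPCs, which were 5 of the 5 and 3 of the 6 elements of the host. Gm11146, which overlaps on the other strand, shared 6 of 9 and 5 of 7 with 4 connections in each table. Mir125b-2, the third microRNA gene of the cluster, 47337 bp away, shared 7 of 9 in Ctr-OPCs and went from 4 connections to 3. The top element had 32 and 24 listed target genes. Its centre, chr16:77593469-77593768 (GRCm38, plus strand), is shown because it carried the highest score; it holds an A run and, near its other end, a CT repeat.
Mir99a element: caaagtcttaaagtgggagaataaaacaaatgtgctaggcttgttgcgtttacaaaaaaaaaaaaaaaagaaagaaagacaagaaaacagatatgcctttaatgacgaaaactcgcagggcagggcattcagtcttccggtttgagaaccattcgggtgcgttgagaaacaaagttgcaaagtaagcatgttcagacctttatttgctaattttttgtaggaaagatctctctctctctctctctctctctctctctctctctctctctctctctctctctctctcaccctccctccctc

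Mir146, the gene of miR-146a, at chr11:43374397-43374461 and outside any host, had no connection in either table. It had 5 pairs in each, and 2 were in both. The intergenic element 269 kb upstream had activities of 3.04 and 2.78, contacts of 0.00430 and 0.00632 and scores of 0.0345 and 0.0396, and the one 29.6 kb downstream activities of 0.730 and 0.827 and scores of 0.0213 and 0.0259. The top Ctr-OPC pair, at 2.82 kb upstream with an activity of 0.450 and a score of 0.0493, had no counterpart in the IFN-γ-OPC table, where the nearest listed element of any gene was 19.7 kb away. Elements within 50 kb of Mir146 reached an activity of at most 0.898 in Ctr-OPCs versus 0.827 in IFN-γ-OPCs, compared with 4.16 and 4.90 around Mir9-2. The promoter activity quantile of Mir146 was 0.448 and 0.591. The largest overlaps of its elements with another gene were 2 of 5 with Gm12145 in the Ctr-OPC table and 2 of 5 with Gm12147, the nearest start on the left, in the IFN-γ-OPC table. Gm12148, at 11021 bp, had 1 common element in each, and 1 of its own reached 0.0531 in Ctr-OPCs.

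Mir155, at chr16:84714140-84714204, was not a target gene in either table, but its host was. Mir155hg, whose start in the tables lies 10973 bp upstream of the hairpin, had 4 pairs in Ctr-OPCs compared with 6 in IFN-γ-OPCs, with 2 connections and 1. The element 1.35 kb from the host start had activities of 0.675 and 0.676, contacts of 0.0348 and 0.0545 and scores of 0.0843 and 0.104, so that the difference was one of contact. The second Ctr-OPC connection, 6.78 kb from the start (activity 0.512, score 0.0605), was not listed for the host in IFN-γ-OPCs. The promoter activity quantile of Mir155hg was 0.727 in Ctr-OPCs against 0.553 in IFN-γ-OPCs. Each table held 2 elements within 50 kb of the hairpin, with activities of at most 0.675 and 0.676, and this was the lowest number around any of the 10 genes. Among these 10 genes, the most active element within 50 kb thus stayed at or below 0.898 in activity for Mir146 and Mir155. That of each of the others was at least 2.52. The window was not examined for other genes, immune ones included, so no background share is given.

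Nearly all elements of these genes were listed for other targets as well. In Ctr-OPCs, 47 of 48 pairs (97.9%) lay on an element with 2 or more target genes and in that of IFN-γ-OPCs 55 of 57 (96.5%). Counted per pair in the same way, the shares were 70.2% and 69.7% of all pairs and 72.2% and 70.7% of the pairs of all microRNA genes, and the median number of targets was 6 and 8 for the genes studied against 3 and 2 for all pairs. Genes with starts in the same 5 kb bin receive the same contact to an element, which the design of the tables cannot tell apart. The exceptions were elements of Mir146. The pairs lay at a median of 11.0 and 12.9 kb, against 15.1 and 15.8 kb for all pairs, 68.8% and 68.4% were in genes (70.1% and 68.8% of all), and the median activity per pair was 2.28 and 2.42, against 1.28 and 1.19 for all pairs.

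**Figure D5:**
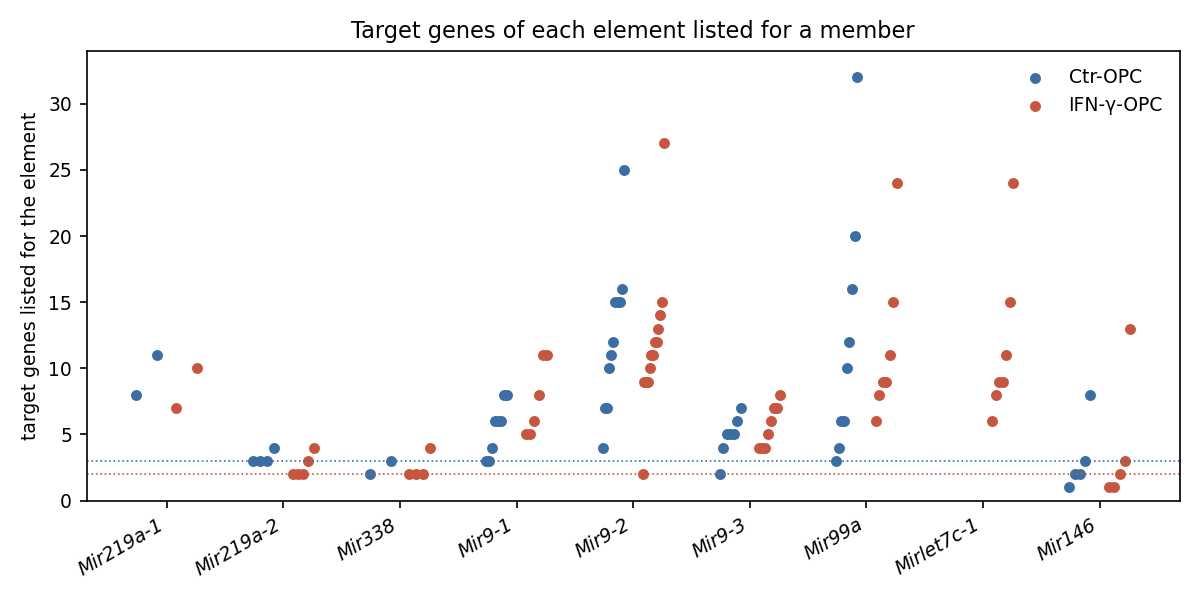
Number of target genes (y axis) listed for each element of a microRNA gene, 1 point per pair, Ctr-OPCs in blue and IFN-γ-OPCs in red; the dotted lines at 3 and 2 are the medians over all pairs of the table of that colour. Mir99a reached 32 in Ctr-OPCs and Mir9-2 27 in IFN-γ-OPCs, while elements of Mir146 alone fell to 1.

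Other genes of the pathway were read by lists. Of 17 genes of microRNA processing 9 were target genes in at least 1 table, with 3 connections in each table, 1 each at Tarbp2, Ago2 and Ddx5, a partner of Dicer, a slicing Argonaute and a helicase of the Drosha complex; 0 had more and 0 fewer. Of 47 other neural and glial microRNA genes 40 were listed, with 39 connections in Ctr-OPCs compared with 51 in IFN-γ-OPCs, 11 genes with more and 3 with fewer. Genes of a cluster repeat each other here: the distinct connected elements numbered 17 and 22, and with genes of the same connected elements counted once 6 loci had more and 3 fewer, of 14 with a connection. Mirlet7i went from 0 to 2, and Mir23b, Mir27b and Mir24-1, which lie in 1 cluster, from 2 to 4, and the clusters of Mir23a, Mir27a and Mir24-2 and of Mir143 and Mir145a each from 0 to 1, while Mir124a-1 and Mir124a-2 went from 1 to 0. Of 14 other immune microRNA genes 8 were listed with 3 and 4 connections on 3 distinct elements in each table, 2 with more (Mir181a-1 and Mir181b-1, a cluster, from 0 to 1) and 1 with fewer (Mir21a, from 2 to 1), and Mir146b, which shares the miR-146a-5p seed, had 1 in each. Over all microRNA genes the count was 519 in Ctr-OPCs against 510 in IFN-γ-OPCs, with more in 187 genes and fewer in 201 of the 1287 listed. In the 3 shorter lists 0 genes had a summed activity times contact that differed by 1.5-fold.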

How the data were processed

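The samples were 3 libraries of Ctr-OPCs and 3 of IFN-γ-OPCs, grouped by the labels. Per the labels and the methods, the authors aligned HiChIP reads to mm10 with HiC-Pro and ran the ABC model on pooled ATAC-seq, H3K27ac CUT&RUN and contacts in 5 kb bins; the aligner settings and depths are not given in the sources used here. The deposited tables give element activity as a signal, the ABC score as a fraction, contact and the power-law share as a score in table units, and the promoter activity quantile as a rank. Pairs start at an ABC score of 0.02 and genes at a quantile of 0.4. The start of a microRNA gene in the tables is its hairpin's 5′ end, not the start of its precursor, and elements of 1 bin share their contact with a gene.

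Target identifiers were named through GENCODE M21 (mm10). Elements of 1 target gene were matched between tables as each other's best overlap of at least 1 bp, "contact" is the adjusted contact that enters the score, and a ratio was called at 1.5-fold, a size rule in place of a test. Python 3.11.15, pandas 2.3.3, NumPy 2.4.6 and matplotlib 3.10.9 were used, and the counting and matching steps were tested on simulated data. Genes named were the members, their hosts and nearest starts, the genes with the most similar element sets, co-targets of connected elements, and examples from the lists. The members and lists were chosen with earlier results of these data known. The shortened tables and contact lists made from the same pairs were not used. Motif searches are not reported here. Alternatives were all pairs, a cut-off of 0.1, the power-law score, 50% reciprocal overlap, division by table medians, and 5 kb bins.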

Additional observations from a re-analysis of the deposited data

How the results depend on the processing

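With 1 table per condition no library could be left out. No paired analysis was possible because the files hold 1 pooled table per condition and no column per replicate. Counting every deposited pair gave 48 and 57 pairs in place of 11 and 18 connections, with 5 genes up and 2 down, and reversed 3 directions, Mir9-1 at -2, Mir9-2 at 2 and Mir99a at -2. A cut-off of 0.1 gave 3 and 6 connections, with 2 genes up and 0 down. The power-law score above 0.05 gave 16 and 20, with 3 up and 2 down; it counts listed pairs only, and the change in connections differed from that above for 8 of 9 genes (Mir9-3 at 2, Mirlet7c-1 at 3, Mir9-1 at 1, Mir219a-1, Mir9-2 and Mir99a at 0, Mir219a-2 and Mir146 at -1), so that the genes up and down were partly others. Leaving out Mirlet7c-1, an alternative chosen after seeing the data, gave 3 up and 1 down. Keeping only the members in both tables leaves the same 8 genes and hence the same counts. The 50% reciprocal overlap removed none of the 34 matched pairs, so the median log2 ratios could not change. Division by the table medians turned that of activity from -0.060 to 0.048 and of contact from 0.025 to -0.024. That of the score was left at 0.054, and the median gene total went from -0.026 to 0.028. All these medians are small, and no direction is drawn from them. Shared elements numbered 47 and 48 as listed, 11 and 14 among connections, and 37 and 38 when counted as 5 kb bins; the cause of these differences is the smaller number of elements counted. Depth is unknown, and the 5 kb bins do not separate a hairpin from its near neighbours.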
